A study of Mus musculus with 9 samples.

Results

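The cadherin and protocadherin genes of the embryonic mouse cortex are described here: every row of the deposited expression table whose symbol begins with Cdh and a number or with Pcdh. The rule found 59 rows of 21210, with 58 symbols, since Pcdh15 has 2 rows. Of these, 17 are classical cadherins (5 of type I and 12 of type II), 5 are other cadherins, 13 are protocadherins outside the gene clusters and 24 belong to the alpha, beta and gamma clusters.

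Poly-A RNA was sequenced from pools of cells sorted from lateral cortex of C57BL/6 embryos at embryonic day 14.5, taken from several embryos of different litters, after meninges and ganglionic eminences had been removed. The series compared 3 populations with 3 libraries each: proliferating progenitors (negative for Btg2, titled RFP minus), differentiating progenitors (positive for Btg2, titled RFP plus) and neurons (positive for Tubb3, titled GFP plus). All 9 libraries carry the genotype label Btg2GFP/Tubb3GFP. That label gives Btg2 a green reporter while the sample titles give its gate a red one; groups were assigned by title and labelled cell type. Btg2 comes on in progenitors whose divisions yield neurons, and Tubb3 is a neuronal tubulin, so each gate reads a reporter and can hold any cell in which that reporter is on. The labels call the 3 libraries of a population biological replicates, and the p-values below measure the spread between these pools.

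Classical cadherins are calcium-dependent adhesion molecules that bind their like on neighbouring cells and are tied to actin through catenins. In the cortex N-cadherin, the product of Cdh2, holds the radial glia together at the ventricular surface, and type II cadherins mark regions, layers and circuits in combinations. Delta protocadherins are single genes with weaker adhesion and cytoplasmic signalling partners. Clustered protocadherins are genes in arrays from which neurons choose isoforms, each from its own promoter, giving a cell an identity used in dendrite self-avoidance and in wiring.

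Values are normalised read counts, as deposited, rounded to whole numbers. A gene was tested with limma on log2(value + 1) if it reached 10 in at least 3 libraries, and called at a Benjamini-Hochberg adjusted p under 0.05 over all 15828 genes tested. Log2 differences below are on that scale, with SE, and understate the change of low genes. A gene low in all libraries of a population can pass the filter only through the others, so its direction against that population is partly set by the filter. Against proliferating progenitors this held for Cdh12, Cdh18, Cdh23 and several beta genes. Without the neurons Cdh12, Cdh18 and Pcdhb12 would not have passed, so the direction of their second step was partly set too. The first step means differentiating against proliferating progenitors and the second step neurons against differentiating progenitors; these are comparisons between pools, and they share the libraries of differentiating progenitors. Normalised totals ran from 17531558 to 22076409 per library. Summed radial glia markers (9 genes in the table of 10 listed) ran from 107682 to 125023 in proliferating progenitors, 49524 to 72002 in differentiating progenitors and 6228 to 7580 in neurons, and 7 neuronal markers of 8 listed ran from 2441 to 6507, 32711 to 39829 and 138167 to 167925. The groups did not overlap for either sum. Red blood cell transcripts (8 genes) were 258836, 103683 and 117943 in proliferating progenitors, against at most 2073 in any other library. Meningeal markers (7 in the table of 8 listed) summed to 387, 988 and 3496 and mural markers (6) to 642, 1004 and 1307 in proliferating progenitors, against 109 to 216 and 181 to 256 in differentiating progenitors and 31 to 66 and 46 to 54 in neurons, although the protocol removed the meninges; the part of such cells in the members' levels was not tested. Between the progenitor populations the meningeal marker Dcn went against that sum, from 17, 27 and 49 to 59, 66 and 62 in differentiating progenitors. In bulk pools, fewer cells of a type and less RNA per cell cannot be told apart.

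Of the 59 rows, 49 passed the filter. The 10 that did not were Cdh1 (E-cadherin), Cdh3 (P-cadherin), Cdh9, Cdh15, Cdh16, Cdh17, Cdh26, Pcdh12, Pcdhb1 and a short second row of Pcdh15 of 468 bases, all with means of 16.3 or less in each group. At the first step 24 members rose, 8 fell and 17 were not called, where 24.9% of all genes tested were called, 13.8% higher and 11.1% lower. At the second step 36 rose, 2 fell and 11 were not called, against a background of 54.0% (27.6% higher, 26.4% lower). Between neurons and proliferating progenitors 39 were higher, 4 lower and 6 not called, against 63.3% (32.2% higher, 31.1% lower). The median log2 difference over the 49 members was 1.10, 1.26 and 2.62 in the 3 comparisons, and that over all genes tested was -0.02, -0.01 and -0.02. The count of members that fell at the first step was 5 without library 2 of the proliferating or library 3 of the differentiating progenitors, and the count that fell at the second step was 1 without library 1 of the differentiating progenitors, library 2 or library 3 of the neurons, and 4 without library 1 of the neurons. Scaling each library to the same total moved the median log2 difference of all genes tested to -0.09, -0.22 and -0.30 in the 3 comparisons, and the share of higher genes among all those called from 51.1% to 37.7% at the second step and from 50.9% to 37.1% between neurons and proliferating progenitors; the members then divided into 24 higher and 10 lower, 30 and 4, and 35 and 6.

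**Figure D1:**
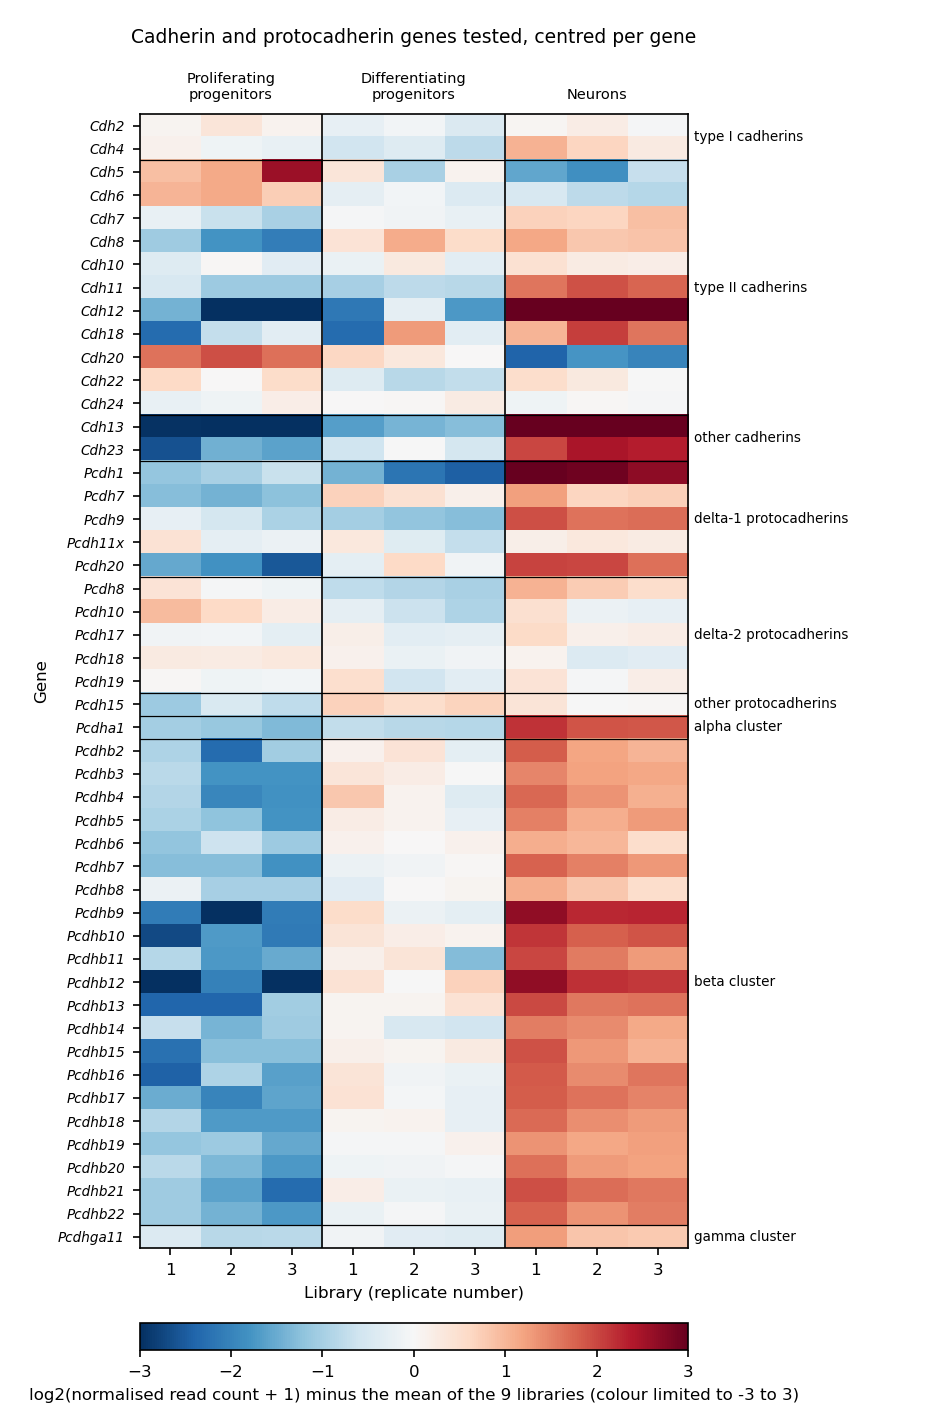
Colour gives log2(normalised read count + 1) of each tested member (rows, grouped by class) in each of the 9 libraries (columns), minus that gene's mean over the 9 libraries, limited to -3 to 3. The beta cluster forms an even block that is low in proliferating progenitors, intermediate in differentiating progenitors and high in neurons, while the cadherins and the delta protocadherins differ from gene to gene.

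The clustered rows moved in 1 direction, while the cadherins and the other protocadherins held rises and falls; no difference between classes was tested. All 23 clustered rows tested were higher in neurons than in either progenitor population, and 18 of them already rose at the first step, with none lower in any comparison. Some beta genes among them passed the filter only through differentiating progenitors or neurons. Of the 11 protocadherins tested outside the clusters, 3 rose and 4 fell at the first step, 5 rose at the second, and 7 were higher and 1 lower in neurons than in proliferating progenitors. Of the 15 cadherins tested, 3 rose and 4 fell at the first step, 8 rose and 2 fell at the second, and 9 were higher and 3 lower across both. Outside the beta cluster the median log2 difference of the 28 members was 0.02, 0.75 and 0.81, so the high median of the whole family at the first step lay in the beta genes. The count of non-clustered protocadherins that fell at the first step was 2 without library 2 of the proliferating progenitors or without library 2 or 3 of the differentiating progenitors, and the count that rose at the second step was 9 without library 1 of the differentiating progenitors. The count of cadherins that rose at the first step was 5 without library 1 of the proliferating progenitors, and the count that fell at the second was 1 without library 1 of the differentiating progenitors, library 2 or library 3 of the neurons.

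To compare genes of different length, values were divided by gene length and summed over each class. Over all members the sum was 4621 ± 254 normalised reads per kilobase in proliferating progenitors, 3929 ± 281 in differentiating progenitors and 7559 ± 836 in neurons (SD, n = 3 each). Type I cadherins made up 33.1% ± 2.1 of that sum in proliferating progenitors, 28.3% ± 2.6 in differentiating progenitors and 22.8% ± 1.4 in neurons, type II cadherins 26.2% ± 1.9, 27.7% ± 3.0 and 19.7% ± 2.0, and delta-2 protocadherins 30.1% ± 2.4, 23.8% ± 3.5 and 20.3% ± 1.7 (SD, n = 3 each). The summed means of these 3 classes were yet higher in neurons than in proliferating progenitors. They were 1724 against 1530, 1481 against 1206 and 1545 against 1396 normalised reads per kilobase. Normalised library totals were also higher in neurons, at 21442620 to 22076409 against 17531558 to 18201880. The class sums were not scaled to equal totals, so a rise relative to all reads is not shown for these classes. The beta cluster held 1.88% ± 0.25, 6.02% ± 0.18 and 8.74% ± 0.46 of the sum over all members, and delta-1 protocadherins 3.41% ± 0.32, 5.74% ± 0.53 and 11.4% ± 0.7. The gamma row held 4.62% ± 0.59, 7.14% ± 0.43 and 8.79% ± 0.71 per kilobase, but its listed length of 28980 bases covers many isoforms. By normalised reads, with no length, it held 18.5% ± 2.0, 26.7% ± 1.1 and 30.0% ± 1.8 (SD, n = 3 each), so the place of the gamma row depends on the length used.

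**Figure D2:**
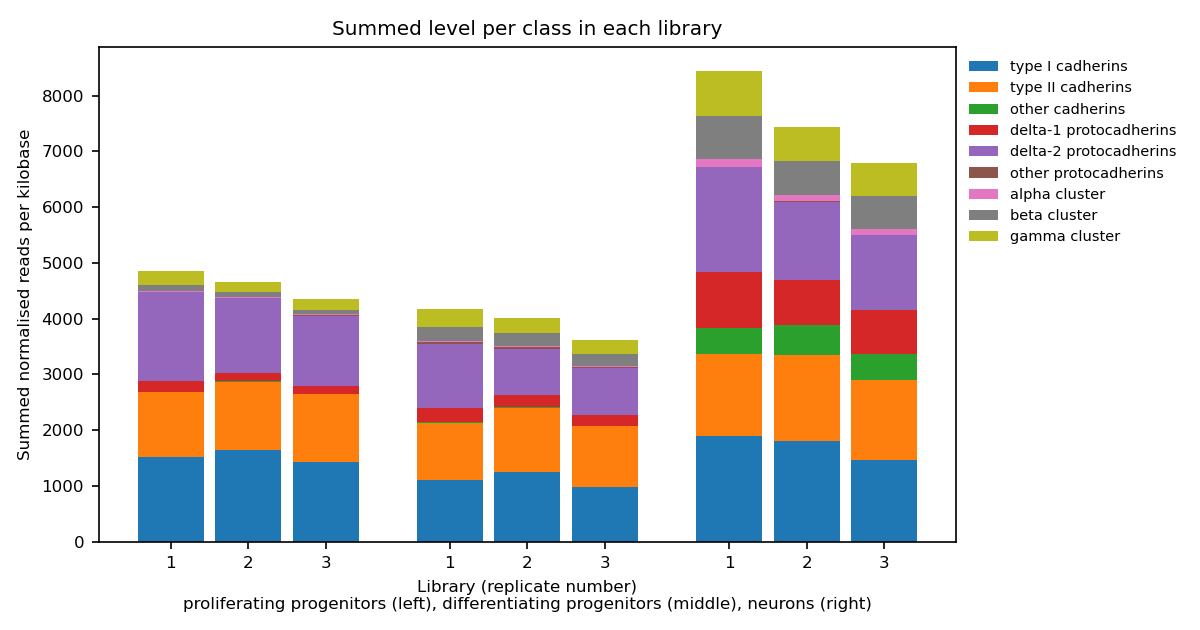
Stacked bars give the summed normalised reads per kilobase of each class in each of the 9 libraries, ordered by population and replicate number. The total lies between 4349 and 4851 in proliferating progenitors, between 3619 and 4166 in differentiating progenitors and between 6789 and 8448 in neurons. Every class except the other protocadherins has its highest mean in neurons, whose normalised library totals are also the highest. The sums are not scaled to equal totals. Type I cadherins and delta-2 protocadherins overlap there with proliferating progenitors.

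Among the type I cadherins, Cdh2 had the highest level per kilobase of all members. Its normalised read count was 8419, 10164 and 8590 in proliferating progenitors, 6678, 7504 and 5869 in differentiating ones and 8227, 9275 and 7734 in neurons. The libraries of differentiating progenitors were all below the others. The log2 difference was -0.44 ± 0.12 at the first step (limma adjusted p = 0.0262) and 0.33 ± 0.12 at the second (adjusted p = 0.0404), and neurons and proliferating progenitors differed by -0.11 ± 0.12, which did not pass (adjusted p = 0.477). Both calls were near the threshold. The first did not pass without library 2 or 3 of the proliferating or library 1 or 3 of the differentiating progenitors (limma adjusted p from 0.0505 to 0.0966). The second did not pass without library 3 of the proliferating progenitors, library 1 or 3 of the differentiating progenitors or library 1 or 2 of the neurons (0.0532 to 0.143), nor with equal totals (0.372), quantile normalisation (0.589), no trend (0.0672) or replicates 2 and 3 alone (0.0716).

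Cdh4, which encodes R-cadherin, an adhesion partner of N-cadherin, was at 3359, 2797 and 2627 in proliferating progenitors, 2044, 2316 and 1775 in differentiating ones and 6261, 4776 and 3659 in neurons. It was highest in neurons without overlap, and rose by 1.23 ± 0.19 on the log2 scale at the second step (limma adjusted p = 0.000478). The difference at the first step was -0.52 ± 0.19 and did not pass (adjusted p = 0.0826), but passed with replicate number as a block (0.00344). The rise from proliferating progenitors to neurons, 0.72 ± 0.19 (limma adjusted p = 0.00908), did not pass after scaling to equal totals or quantile normalisation (highest 0.0862). The other type I genes, Cdh1, Cdh3 and Cdh15 (M-cadherin), had values between 0 and 9 in every library.

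The type II cadherins moved in opposite directions. Cdh8, Cdh11, Cdh12, Cdh7, Cdh10 and Cdh18 were higher in neurons than in proliferating progenitors, Cdh6, Cdh20 and Cdh5 were lower, and Cdh22 and Cdh24 were not called between those populations. Cdh12 and Cdh18 were below 10 in every proliferating library and passed the filter only through other libraries, so their direction was partly set by it. The rises and falls were also placed at different steps, and 4 genes show the extremes.

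Cdh20 and Cdh6 were the only members of the family that fell at both steps, where 5.7% of all genes tested did so. Cdh20 was at 292, 366 and 298 in proliferating progenitors, 147, 118 and 95 in differentiating ones and 17, 27 and 23 in neurons. No libraries of neighbouring populations overlapped, and it fell by 1.42 ± 0.23 and then by 2.38 ± 0.23 on the log2 scale (limma adjusted p = 0.00215 and 2.184e-05). Cdh6, a cadherin used as a marker of regional boundaries in the forebrain, was at 985, 1072 and 808, then 404, 457 and 367, then 346, 279 and 266. Most of its fall lay at the first step, by 1.22 ± 0.15 (limma adjusted p = 0.000487). The fall at the second step, by 0.47 ± 0.15 (adjusted p = 0.0269), did not pass without library 1 or 2 of the differentiating progenitors or library 2 or 3 of the neurons (0.0526 to 0.0948), nor with quantile normalisation (0.0504).

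Cdh8 had the reverse course at the first step. Its normalised read count lay between 136 and 274 in proliferating progenitors and was 770, 1246 and 847 in differentiating ones and 1297, 1019 and 1048 in neurons. All libraries of differentiating progenitors lay above all of the proliferating ones, while they overlapped with the neurons. The log2 rise was 2.34 ± 0.27 at the first step (limma adjusted p = 0.000322) and the second step added 0.26 ± 0.27, which did not pass (adjusted p = 0.461). Cdh8 was the 1 type II gene called higher at the first step, a count that was 3 without library 1 of the proliferating progenitors.

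Cdh11 and Cdh12 differed between populations at the second step. Cdh11, also known as OB-cadherin, was at 406, 267 and 267 in proliferating progenitors, 284, 327 and 320 in differentiating ones and 1721, 2120 and 1899 in neurons. Both progenitor populations overlapped and neurons stood apart, with a log2 rise of 2.62 ± 0.17 (limma adjusted p = 1.723e-06). Cdh12 was nearly absent from the progenitors, at 4, 0 and 0 and at 2, 10 and 3, and reached 337, 269 and 211 in neurons. Its log2 difference at the second step was 5.72 ± 0.70 (limma adjusted p = 0.0001), a value that depends on the added 1 because the progenitor values are so low. Cdh12 passed the filter only with the neurons, so the direction of this step was partly set by the filter.

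Promoter sequences are shown for these 4 contrasting type II genes that have an entry in RefSeq's promoter set for build GRCm38.p6: Cdh20, which fell at both steps, Cdh6, which fell mostly at the first, Cdh8, which rose at the first, and Cdh12, which rose at the second. Each window runs from 250 bases before to 50 bases after the annotated start, 5′ to 3′ on the gene's own strand. Capitals mark the letters GGGCGG (a GC box) and CAGCTG (an E-box) on either strand; the same strands were searched for the other motifs below except where stated. The windows are chr1:104768270-104768569 (plus strand) for Cdh20, chr15:13173626-13173925 (minus) for Cdh6, chr8:99416422-99416721 (minus) for Cdh8 and chr15:21111202-21111501 (plus) for Cdh12.
Cdh20: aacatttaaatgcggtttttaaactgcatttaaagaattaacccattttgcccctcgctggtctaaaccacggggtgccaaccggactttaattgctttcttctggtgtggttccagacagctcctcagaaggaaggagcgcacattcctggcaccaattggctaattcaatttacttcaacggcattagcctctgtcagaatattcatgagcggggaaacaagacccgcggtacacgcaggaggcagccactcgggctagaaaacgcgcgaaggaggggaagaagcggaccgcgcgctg
Cdh6: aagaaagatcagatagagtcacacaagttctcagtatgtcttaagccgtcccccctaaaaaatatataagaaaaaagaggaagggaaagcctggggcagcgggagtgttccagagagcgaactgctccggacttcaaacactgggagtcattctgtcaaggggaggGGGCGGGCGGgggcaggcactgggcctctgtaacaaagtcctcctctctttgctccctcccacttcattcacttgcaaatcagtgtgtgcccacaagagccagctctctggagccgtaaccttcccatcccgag
Cdh8: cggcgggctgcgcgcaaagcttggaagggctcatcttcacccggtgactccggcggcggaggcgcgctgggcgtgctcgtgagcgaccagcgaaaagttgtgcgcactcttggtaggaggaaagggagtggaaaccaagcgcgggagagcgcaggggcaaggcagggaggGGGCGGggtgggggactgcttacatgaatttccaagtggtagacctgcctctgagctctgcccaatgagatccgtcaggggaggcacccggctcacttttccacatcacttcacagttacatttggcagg
Cdh12: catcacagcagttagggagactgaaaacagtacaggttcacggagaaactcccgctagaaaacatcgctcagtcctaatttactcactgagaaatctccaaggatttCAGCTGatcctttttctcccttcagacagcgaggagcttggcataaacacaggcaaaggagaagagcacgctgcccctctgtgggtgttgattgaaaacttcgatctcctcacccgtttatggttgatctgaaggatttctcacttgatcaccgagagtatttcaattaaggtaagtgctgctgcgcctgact

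The Cdh6 window holds 2 overlapping GC boxes, the Cdh8 window 1, the Cdh12 window 1 E-box, and the Cdh20 window neither. The windows were 50.7% G and C with 18 CpG in Cdh20, 53% with 8 in Cdh6, 62.3% with 21 in Cdh8 and 46.7% with 9 in Cdh12. Of the 58 member symbols 22 had an entry, with 25 windows. GGGCGG was in 9 of these and in 35.7% of all 32851 windows, and CAGCTG in 3 and in 16.3%. CAGATG (an E-box read by proneural factors) was in 2 member windows and in 17.2% of all, GTGGGAA (the core read by RBPJ) in 2 and in 6.38%, and TATAAA, searched on the gene's own strand only, in 2 and in 8.32%. The median share of G and C was 60.3% over member windows and 52.7% over all, with a median of 14 and 7 CpG. A match is a run of letters and does not show a bound site.

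Cdh7, Cdh10 and Cdh18 were also higher in neurons than in proliferating progenitors. Cdh7 was at 133, 98 and 79, then 152, 146 and 135, then 253, 245 and 294, and its log2 rise at the second step was 0.86 ± 0.19 (limma adjusted p = 0.00446). The first step, 0.51 ± 0.19, passed with replicate number as a block (0.0328 against 0.0924 without it). Cdh10 differed by 0.53 ± 0.18 between neurons and proliferating progenitors (limma adjusted p = 0.0307), and this did not pass without library 1 or 3 of the proliferating progenitors or library 1 or 2 of the neurons (0.0586 to 0.0908), nor with equal totals (0.242) or replicates 2 and 3 alone (0.15). Cdh18 was at 20 or less in every library, and its log2 difference between the same populations, 2.68 ± 0.89 (limma adjusted p = 0.0252), did not pass without library 1 of the proliferating progenitors or library 2 or 3 of the neurons (0.0618 to 0.0821). With the block, both also passed at the second step (limma adjusted p = 0.0252 for Cdh10 and 0.00843 for Cdh18).

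Cdh22 and Cdh24 ended in neurons near their level in proliferating progenitors. Cdh22 was at 152, 101 and 146, then 76, 55 and 59, then 143, 122 and 98, and the libraries of differentiating progenitors were all below the rest. The log2 difference was -1.05 ± 0.23 at the first step (limma adjusted p = 0.00984) and 0.92 ± 0.23 at the second (0.00763). Cdh24 was second only to Cdh2 in mean level per kilobase, at 1210 to 1614 in proliferating progenitors, 1410 to 1677 in differentiating progenitors and 1282 to 1455 in neurons, with all 3 ranges overlapping and no comparison called.

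Cdh5, or VE-cadherin, is the cadherin of endothelial junctions. It was at 32, 38 and 105 in proliferating progenitors, 22, 8 and 18 in differentiating ones and 5, 4 and 10 in neurons. The proliferating progenitors were above all other libraries, and the other populations overlapped. It was lower in neurons than in proliferating progenitors by a log2 difference of -2.90 ± 0.55 (limma adjusted p = 0.0013), and the first step (-1.71 ± 0.55) and the second (-1.19 ± 0.55) passed with replicate number as a block (0.00449 and 0.0161, against 0.051 and 0.0973). The 10 endothelial markers listed, all in the table, summed to 188, 282 and 667 in proliferating progenitors, 196, 207 and 264 in differentiating ones and 58, 68 and 108 in neurons. Library 3 of the proliferating progenitors was the highest for Cdh5 and for this sum, and also for Pcdh12, a protocadherin of endothelial cells that did not pass the filter (7, 13 and 29, then 1, 4 and 4, then 1, 1 and 5). The defining marker Pecam1 was at 19, 38 and 42, then 10, 15 and 15, then 7, 10 and 12, and Cldn5 at 15, 21 and 48, then 6, 7 and 9, then 0, 2 and 5. Kdr made up most of the sum in differentiating progenitors, at 62, 76 and 187, then 120, 123 and 157, then 14, 21 and 36. The part of endothelial cells in the level of Cdh5 was not tested.

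Of the other cadherins, Cdh13, or T-cadherin, which is held in the membrane by a lipid anchor and lacks a cytoplasmic tail, had the largest difference in the family. It was at 28, 22 and 26 in proliferating progenitors, 72, 86 and 93 in differentiating ones and 5099, 5978 and 5037 in neurons. No libraries of different populations overlapped. It rose by 1.68 ± 0.15 at the first step (limma adjusted p = 9.3e-05) and by 5.99 ± 0.15 at the second (4.217e-08), and in neurons it was 204-fold above proliferating progenitors on the log2(value + 1) scale (limma adjusted p = 1.044e-08). Per kilobase it held 0.0492% ± 0.0061 of the family's sum in proliferating progenitors and 6.42% ± 0.92 in neurons (SD, n = 3 each). The summed markers of Cajal-Retzius cells (6 genes) were also highest in neurons, at 136 to 205, 1207 to 1654 and 17766 to 20710 in the 3 populations. Within that list Ebf3 did not rise at the second step, at 340, 466 and 460 and then 394, 379 and 358. The interneuron sum (9 genes) was 1076, 264 and 93, then 3159, 1534 and 490, then 10635, 9021 and 9162. It overlapped between the progenitor populations and fell from library 1 to library 3 in each, while Cdh13 stayed within 22 to 28 and 72 to 93. The part of Cajal-Retzius cells and interneurons in the neuronal levels of Cdh13, Cdh11 and Cdh12 was not tested.

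Cdh23, a long cadherin best known from the tip links of hair cells, was at 3, 8 and 7, then 15, 23 and 16, then 96, 131 and 124. The populations did not overlap, and it rose by 1.50 ± 0.35 and by 2.65 ± 0.35 (limma adjusted p = 0.0135 and 0.000174), although the first step did not pass without library 2 of the differentiating progenitors (0.0571). Its partner in the tip link, Pcdh15, had its main row (21940 bases) at 55, 87 and 70, then 193, 171 and 191, then 156, 118 and 121. All libraries of differentiating progenitors were above all others for Pcdh15. The log2 difference was 1.40 ± 0.20 at the first step (limma adjusted p = 0.0011) and -0.50 ± 0.20 at the second, which did not pass (0.0627) and passed with the block (0.0412). No member was called highest in differentiating progenitors, where 2.2% of all genes tested were, and with the block Pcdh15 was the 1 member so called; it was also so called without library 1 or 2 of the proliferating progenitors or library 1 of the neurons.

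Among the members, 5 were called lowest in differentiating progenitors, passing both comparisons with that population: Cdh2, Cdh22, Pcdh1, Pcdh9 and Pcdh8. Of all genes tested 2.51% were so called. The count was 2 without library 2 of the proliferating or library 3 of the differentiating progenitors, and 3 without library 3 of the proliferating, library 2 of the differentiating progenitors or library 2 of the neurons. With the replicate block, under which more of all genes tested were called at each step, it was 7, with Cdh4 and Pcdh10 added.

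**Figure D3:**
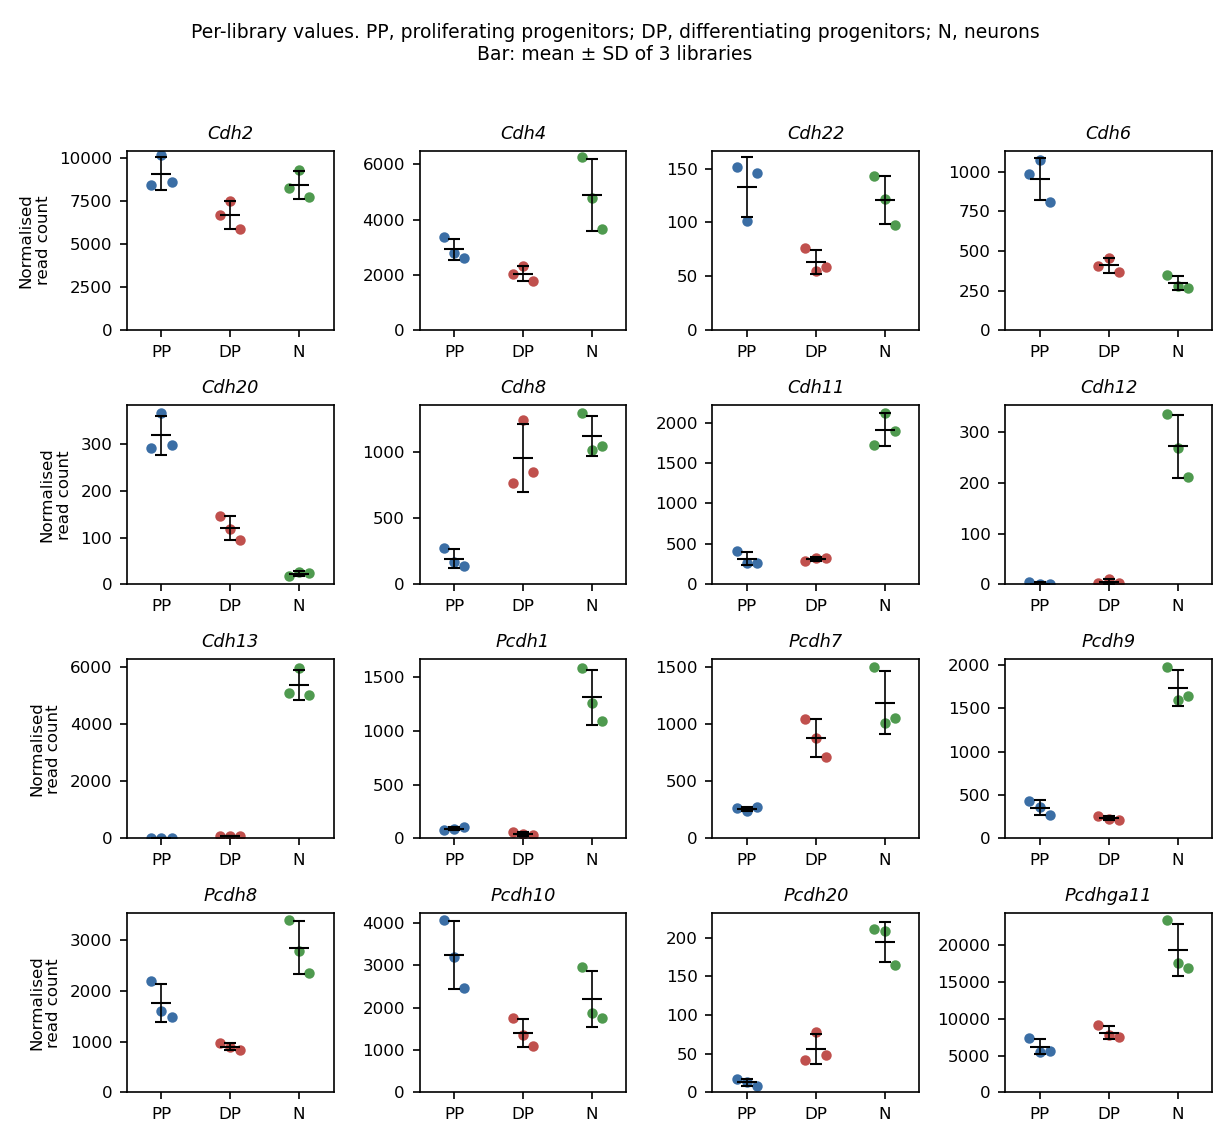
Points give the normalised read count of 16 members in each library of proliferating progenitors (PP), differentiating progenitors (DP) and neurons (N), and bars the mean ± SD of 3 libraries, with a linear axis from 0 for each gene. Cdh6 and Cdh20 descend, Cdh8 and Pcdh7 rise mostly at the first step, Cdh11, Cdh12, Cdh13, Pcdh1 and Pcdh9 at the second, and Cdh2, Cdh4, Cdh22, Pcdh8 and Pcdh10 have their lowest mean in differentiating progenitors.

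Delta-1 protocadherins carry a tail motif bound by a protein phosphatase, and 4 of 5 were higher in neurons than in proliferating progenitors. Pcdh1 was at 75, 85 and 106 in proliferating progenitors, 62, 36 and 30 in differentiating ones and 1589, 1264 and 1088 in neurons. Neurons stood far above both other populations, with a log2 rise of 4.96 ± 0.27 at the second step (limma adjusted p = 6.428e-07). The fall before it, by 1.09 ± 0.27 (adjusted p = 0.0189), did not pass without library 2 or 3 of either progenitor population (0.0522 to 0.0706).

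Pcdh9 had a like course, at 436, 357 and 267, then 255, 226 and 214, then 1980, 1596 and 1648. It rose by 2.90 ± 0.18 at the second step (limma adjusted p = 1.171e-06). The first step, a fall by 0.58 ± 0.18 (adjusted p = 0.0423), did not pass without library 1 or 2 of the proliferating progenitors, library 2 or 3 of the differentiating progenitors or library 2 or 3 of the neurons (0.0625 to 0.129), nor with no trend (0.0587) or 2 groups in the fit (0.0848).

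Pcdh7 and Pcdh20 rose at the first step instead. Pcdh7, also called NF-protocadherin, was at 263, 240 and 274, then 1042, 878 and 711, then 1506, 1008 and 1055. The proliferating progenitors were below all other libraries, and the log2 rise was 1.74 ± 0.18 (limma adjusted p = 0.000205), while the second step (0.43 ± 0.18) passed with the block (0.00958 against 0.0738). Pcdh20 was at 17, 14 and 8, then 42, 78 and 48, then 211, 209 and 165. It rose by 2.03 ± 0.32 and by 1.82 ± 0.32 (limma adjusted p = 0.0019 and 0.00107) with no overlap at either step. Pcdh11x, the remaining gene, lay between 45 and 101 in every library and was called in no comparison.

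Delta-2 protocadherins, whose tails bind the actin-regulating WAVE complex in the members studied, lay in a narrower range across both steps. Over the 5 genes the log2 difference between neurons and proliferating progenitors lay between -0.57 and 0.70, against 0.26 to 3.87 for delta-1. Single steps were larger for Pcdh8 and Pcdh10, and the classes were not compared by a test. Pcdh8, the mouse arcadlin, was at 2184, 1605 and 1489, then 972, 892 and 837, then 3394, 2779 and 2357. The differentiating progenitors were below and the neurons above the rest, with log2 differences of -0.95 ± 0.17 and 1.65 ± 0.17 at the 2 steps (limma adjusted p = 0.00365 and 3.379e-05). The difference across both, 0.70 ± 0.17 (limma adjusted p = 0.00563), did not pass after scaling to equal totals or quantile normalisation (highest 0.0638).

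Pcdh10, or OL-protocadherin, was at 4076, 3186 and 2468, then 1757, 1354 and 1100, then 2958, 1871 and 1766. Library 1 was the highest in each population. Its log2 difference was -1.20 ± 0.26 at the first step (limma adjusted p = 0.00854), and the second step (0.63 ± 0.26, adjusted p = 0.0633) and the difference across both (-0.57 ± 0.26, 0.079) passed with replicate number as a block (1.531e-05 and 2.56e-05).

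The other delta-2 genes were flatter. Pcdh17 ranged from 639 to 743, 630 to 885 and 874 to 1167, and the second step (0.46 ± 0.16, limma adjusted p = 0.0363) did not pass without library 2 of the proliferating progenitors, library 2 or 3 of the differentiating progenitors or library 1 or 3 of the neurons (0.0512 to 0.122), nor with equal totals (0.246), quantile normalisation (0.0652), no trend (0.0529) or 2 groups in the fit (0.0606). Its difference between neurons and proliferating progenitors, 0.48 ± 0.16 (limma adjusted p = 0.0251), did not pass without library 3 of the proliferating progenitors or library 1 of the neurons (0.0841 and 0.0845), nor with equal totals (0.332). Pcdh18 ranged from 1767 to 1877, 1297 to 1632 and 1122 to 1621. It was lower in neurons than in proliferating progenitors by a log2 difference of -0.50 ± 0.15 (limma adjusted p = 0.0142), which did not pass without library 2 or 3 of the neurons (0.0556 and 0.0581); its first step (-0.34 ± 0.15) passed with the block (0.0125 against 0.127). Pcdh19, whose human counterpart is an epilepsy gene, was called in no comparison, at 2199 to 2479, 1624 to 3420 and 2342 to 3227.

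The clustered protocadherins are listed unevenly in the table, which limits what can be read from them. The alpha cluster has 1 row, under Pcdha1 (ENSMUSG00000007440, 24688 bases), and the gamma cluster 1 row, under Pcdhga11 (ENSMUSG00000023036, 28980 bases). The name fields of these rows list 13 and 11 different cluster names, so their isoforms are counted together, and the C-type isoforms Pcdhac1, Pcdhac2, Pcdhgc3, Pcdhgc4 and Pcdhgc5 have no row of their own. The beta genes, each a single exon with its own promoter, have 22 rows. They are close copies of each other, and the sources used here do not say how reads that match several copies were treated, so the value of any single beta gene is uncertain.

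The gamma row was at 7417, 5559 and 5640 in proliferating progenitors, 9118, 7756 and 7543 in differentiating ones and 23413, 17651 and 16942 in neurons. The populations did not overlap. The log2 rise was 1.24 ± 0.16 at the second step (limma adjusted p = 0.000134), and the first step (0.40 ± 0.16) passed with the block (0.000176 against 0.103). The alpha row was at 364, 337 and 296, then 443, 419 and 407, then 3328, 2740 and 2705, again with no overlap. It rose by 2.78 ± 0.12 at the second step (limma adjusted p = 1.436e-07), and its first step (0.35 ± 0.12) passed with the block (0.0023 against 0.0554).

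The beta genes rose together. Of 21 tested, 18 rose at the first step and 21 at the second, and 21 were higher in neurons than in proliferating progenitors. With any 1 library left out these counts were 17 to 19, 16 to 21 and 21. Beta genes below 10 in every proliferating library, Pcdhb9 and Pcdhb12 among them, passed the filter only through libraries of the other populations. Their rise from proliferating progenitors was thus partly set by the filter. The median log2 difference of the 21 was 1.50 at the first step (range 0.64 to 3.05), 1.53 at the second (0.78 to 2.37) and 2.96 across both (1.53 to 5.00). For 19 of the 21, all 3 populations were separate at both steps, and the exceptions were Pcdhb8 and Pcdhb11. The share of all genes tested with such separation was not computed, so this count is not read as particular to the cluster. A rise at both steps was called for 18 beta genes and for Pcdh20, Cdh13 and Cdh23, 21 members in all, where 8.12% of all genes tested were so called. Pcdhb8, Pcdhb11 and Pcdhb14 were not called at the first step (limma adjusted p = 0.152, 0.13 and 0.116), and Pcdhb11 and Pcdhb14 passed with the block (0.0297 and 0.0402). Of the 19 alternatives run, only a filter on a mean of at least 50 moved the counts by over 1.5 times. It tested fewer genes, and 9, 11 and 11 clustered rows were then called higher in the 3 comparisons.

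Summed over the cluster, beta transcripts were at 104.9, 82.2 and 74.4 normalised reads per kilobase in proliferating progenitors, 259.1, 234.4 and 216.4 in differentiating ones and 778.4, 618.1 and 589.7 in neurons. The sum was 2.71-fold higher at the first step and 2.80-fold higher at the second, in ratios of means. The gamma row rose 1.31-fold and 2.38-fold and the alpha row 1.27-fold and 6.91-fold on the same scale. The beta genes thus rose by a like factor at each step, and the alpha and gamma rows by more at the second.

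The 4 beta genes with the highest mean level per kilobase were Pcdhb17, Pcdhb20, Pcdhb22 and Pcdhb7. Pcdhb17 was at 33, 23 and 31 normalised reads in proliferating progenitors, 127, 91 and 79 in differentiating ones and 333, 291 and 264 in neurons, and rose by 1.72 ± 0.23 and 1.59 ± 0.23 (limma adjusted p = 0.00067 and 0.000268). Pcdhb20 was at 44, 30 and 23, then 72, 73 and 76, then 250, 190 and 183. In both genes the populations were separate at each step. Together the 4 held 35.7% of the cluster's reads per kilobase in proliferating progenitors, 35.6% in differentiating progenitors and 38.5% in neurons, so the rise of the cluster did not lie in these alone.

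The largest log2 differences in the cluster were in genes with values of 0 to 3 in proliferating progenitors. Pcdhb12 was at 0, 1 and 0, then 10, 7 and 12, then 50, 36 and 34, a log2 rise of 3.05 ± 0.39 at the first step and 5.00 ± 0.39 across both (limma adjusted p = 0.000619 and 3.69e-06). Pcdhb9 was at 3, 1 and 3, then 24, 14 and 13, then 106, 81 and 82, and had the largest rise of the cluster at the second step, by 2.37 ± 0.37 (limma adjusted p = 0.000499). For both, the value in proliferating progenitors is a few reads and the fold depends on the added 1.

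The levels of the beta genes varied with their number. In neurons the median was 24.7 normalised reads per kilobase for Pcdhb2 to Pcdhb8, 16.9 for Pcdhb9 to Pcdhb15 and 45.6 for Pcdhb16 to Pcdhb22, with 7 genes in each group; in proliferating progenitors it was 4.89, 0.764 and 6.74. The middle group had the lowest median in all 3 populations, although Pcdhb9 was at 29.4 in neurons. The highest and lowest of the 21 tested genes were 9.93-fold apart in neurons, 10.2-fold apart in differentiating progenitors and 82.9-fold apart in proliferating progenitors, where the lowest, Pcdhb12, had 1 normalised read in 3 libraries. Pcdhb1 was at 0 or 1 in every library and had no part in the rise. These groups of numbers were drawn after the values were seen and have no test.

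**Figure D4:**
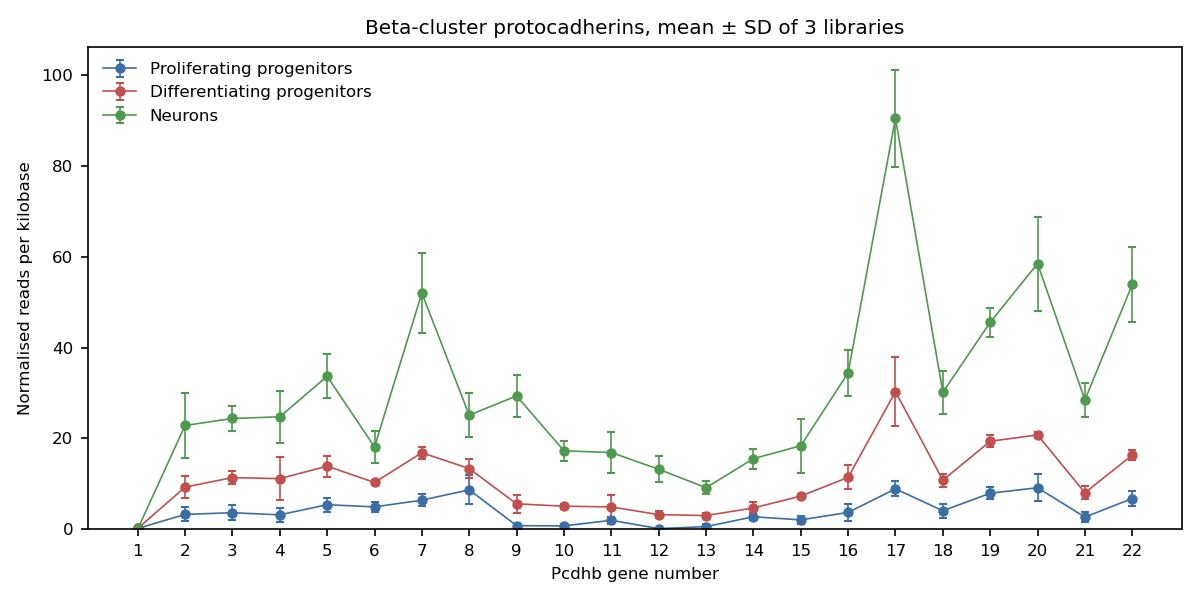
Points give the mean normalised reads per kilobase of each beta gene, by gene number, in the 3 populations, and bars the SD of 3 libraries; lines only join points of a population. Each of Pcdhb2 to Pcdhb22 rises from proliferating to differentiating progenitors to neurons, with peaks at Pcdhb7 and Pcdhb17 and low levels from Pcdhb10 to Pcdhb15.

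Genes that work with cadherins were read from lists, beside the shares of all genes tested that were called. These were 24.9% at the first step (13.8% higher, 11.1% lower) and 54.0% at the second (27.6% higher, 26.4% lower). Across both the share was 63.3% (32.2% higher, 31.1% lower). Of 9 catenins and catenin-related genes tested of 10 listed, 2 rose and 3 fell at the first step, 3 rose and 5 fell at the second, and 4 were higher and 5 lower in neurons than in proliferating progenitors. Alpha-catenins, which link the cadherin complex to actin, moved in opposite directions. Ctnna1, the epithelial form, was at 6634, 7769 and 6546 in proliferating progenitors, 5559, 5857 and 5442 in differentiating ones and 791, 717 and 712 in neurons, a fall by 2.92 ± 0.09 on the log2 scale at the second step (limma adjusted p = 5.009e-08). Ctnna2, the neural form, was at 513, 457 and 384, then 889, 1247 and 956, then 7776, 9316 and 8530, a rise by 1.18 ± 0.15 and 3.06 ± 0.15 (limma adjusted p = 0.000591 and 3.52e-07). The neurons overlapped with no other library for either gene. Jup, or plakoglobin, rose at both steps, from 69 to 78 through 162 to 247 to 892 to 1014. The count of catenins higher in neurons than in proliferating progenitors was 2 after scaling to equal totals or quantile normalisation.

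**Figure D5:**
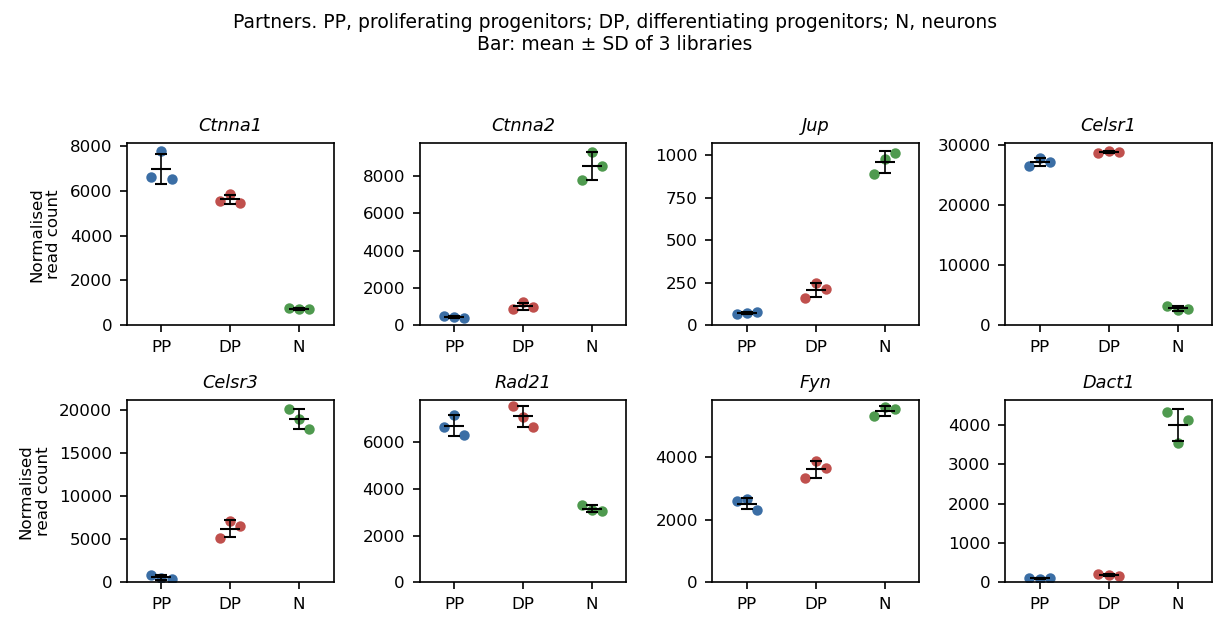
Points give the normalised read count of 8 partner genes in each library of proliferating progenitors (PP), differentiating progenitors (DP) and neurons (N), and bars the mean ± SD of 3 libraries, with a linear axis from 0. Ctnna1, Celsr1 and Rad21 are low in neurons, and Ctnna2, Jup, Celsr3, Fyn and Dact1 are high.

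Of 13 other genes of the cadherin superfamily tested of 19 listed, 6 rose and 1 fell at the first step, 10 rose and 2 fell at the second, and 11 were higher and 2 lower in neurons than in proliferating progenitors; the first count was 3 without library 2 of either progenitor population. The 1 that fell at the first step became 3 with the replicate block or with replicates 2 and 3 alone, and 2 without library 1 of the differentiating progenitors. Cdhr1, Dsg2 and Ret were below 10 in every progenitor library and passed the filter only through neurons. Their rise to neurons, included in these counts, was thus partly set by the filter. The planar polarity cadherins Celsr1 and Celsr3 moved apart. Celsr1 ranged from 26491 to 27861, 28667 to 28915 and 2483 to 3285, and fell by 3.37 ± 0.10 on the log2 scale at the second step (limma adjusted p = 5.009e-08). Celsr3 ranged from 378 to 906, 5110 to 7082 and 17828 to 20113, and rose by 3.51 ± 0.28 and 1.62 ± 0.28 (limma adjusted p = 5.65e-05 and 0.00097).

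Of genes known to act on the choice of clustered isoforms, or to bind their tails, there were 14 tested of 15 listed. At the first step 2 rose and 0 fell, with 1 rising in every fit that left out a library other than library 1 of the differentiating progenitors, and 4 rising and 1 falling with the replicate block. At the second step 2 rose and 8 fell, 5 without library 3 of the differentiating progenitors. Rad21, a cohesin subunit, ranged from 6301 to 7166, 6657 to 7551 and 3054 to 3321, a fall by 1.17 ± 0.08 at the second step (limma adjusted p = 2.751e-06). Fyn, a kinase, ranged from 2301 to 2658, 3325 to 3861 and 5303 to 5605, and rose by 0.52 ± 0.09 and 0.61 ± 0.09 (limma adjusted p = 0.00246 and 0.000285). Of 8 delta protocadherin partners tested of 9 listed, 2 rose at the first step. This count was 1 without library 3 of the proliferating or library 2 or 3 of the differentiating progenitors. At the second step 4 rose, and 5 were higher in neurons than in proliferating progenitors. The counts at both steps lay close to the shares of all genes called in either direction and above the shares called higher. None of the 8 fell, while 2 fell at the first step with the replicate block and 1 at the second with equal totals or quantile normalisation. Dact1, a scaffold protein of Wnt signalling, ranged from 95 to 123, 170 to 204 and 3544 to 4336, and rose by 4.42 ± 0.13 at the second step (limma adjusted p = 5.009e-08). Wasf1, of the WAVE complex, ranged from 1201 to 1464, 1215 to 1518 and 2315 to 2966, with a rise by 0.94 ± 0.13 at the second step (limma adjusted p = 0.000226).

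In the authors' deposited table of ratios and adjusted p-values, 23 members were higher and 6 lower at the first step, 34 and 2 at the second, and 40 and 5 across both, at their adjusted p under 0.05. Of these, 29, 35 and 43 were called here in the same direction. Called here and not in the authors' deposited table were Cdh2 and Pcdhb6 at each step, Pcdh9 at the first and Pcdhb8 at the second. Of the members that did not pass the filter, Cdh9 was called higher at the second step and across both and Cdh17 lower across both in the authors' deposited table; Cdh9 was at 0, 0 and 1, then 0, 2 and 2, then 6, 16 and 21.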

How the data were processed

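Poly-A RNA of 9 sorted pools was measured by strand-specific RNA sequencing, per the labels' protocols. Build mm9 and the tools DESeq 1.8.1, bedtools 2.11, BWA and CASAVA 1.8.0 are named, per the submitters' processing notes; their order, the strand setting and the handling of multiple matches are not given in the sources used here. Deposited by the authors was 1 table for Ensembl version 61 genes, with a score per gene and library (normalised read counts as whole numbers), their ratio of group means and adjusted p-value per comparison, and the gene length as another column. Raw counts were not used here, so a count test foreseen for raw counts was not run.

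Members were taken by symbol. limma 3.58.1 in R 4.3.3 was fitted with an intensity trend on log2(value + 1), with 3 group means over 9 libraries and 6 residual degrees of freedom, over genes with at least 10 in at least 3 libraries. Two-sided p-values were adjusted by Benjamini-Hochberg at 0.05. The script was tested on simulated data. Python 3.11.15, numpy 2.4.6, pandas 2.3.3 and matplotlib 3.10.9 did the rest. The members and lists were chosen with earlier results of these data known. Outside the clusters every called member is named; within them, the 4 highest per kilobase, the largest changes and the C-type genes; and from each partner list up to 4 genes with the smallest adjusted p. Other genes named complete a count or mark a limit.

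Libraries with equal replicate numbers in the titles deviated together: after group means were removed, the correlation across genes was 0.507 to 0.767 for the 9 pairs of equal number and -0.640 to 0.428 for the 18 others. The blocked fit, with the replicate number as a term (4 residual degrees of freedom) is given where it changes a call. The number of reads behind a value is not exact, since the values are normalised; estimates from the steps between low values were 12649019 to 27584473 per library, and were weakest for library 3 of the differentiating progenitors and of the neurons.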

Additional observations from a re-analysis of the deposited data

How the results depend on the processing

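Of 113 calls of members, 19 were lost (13 of 53 outside the beta cluster and 6 of 60 in it, of Pcdhb2, Pcdhb4, Pcdhb6, Pcdhb8 and Pcdhb15) in at least 1 of 19 alternatives (pseudocounts of 0.5 and 5, no filter, a mean of at least 50, equal totals, quantile normalisation, no trend, the replicate block, replicates 2 and 3 alone, 2 groups in the fit, and each library left out in turn), and 0 changed direction. The cause of these losses was not tested. With a mean of at least 50, which leaves 38 of the calls untested, 14, 23 and 25 members were higher in the 3 comparisons in place of 24, 36 and 39. The 8 members lower at the first step became 5 to 10 with a library left out. The 2 members lower at the second step became 4 with equal totals, 1 with quantile normalisation, 4 with the replicate block, 4 with replicates 2 and 3 alone, and 1 to 4 with a library left out. The 4 members lower in neurons than in proliferating progenitors became 7 without a filter. No member was highest in differentiating progenitors in the fit reported, and 1 was with equal totals, with the block, with replicates 2 and 3 alone and with 2 groups in the fit (0 to 1 with a library left out). The 5 members lowest in differentiating progenitors became 3 without a trend and 2 to 5 with a library left out. The replicate block ended no call of a member, and it added 15, each given beside its gene. It also added calls over all genes tested. At the first step these went from 2186 higher and 1758 lower to 3793 and 3489. At the second they went from 4368 and 4183 to 5661 and 5620, and across both from 5099 and 4924 to 6129 and 6245. Calls gained with the block are thus not particular to the members. Values of a few reads, as for Cdh12, Cdh18 and Pcdhb12 in progenitors, limit the size of a fold and not only its error.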
